A study of Mus musculus with 12 samples.

Results

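Adult mammary gland epithelium and adult lung epithelium of the mouse were compared by microRNA (miRNA) array. The comparison takes the 3 arrays labelled as mouse mammary epithelial cells (replicates 1, 2 and 4) and the 3 labelled as mouse lung epithelial cells (replicates 1, 2 and 3), which are 6 of the 12 arrays in the series. Both tissues came from female mice aged 10 weeks, and the labels give neither strain nor genotype. Per the labels, lung and mammary gland were digested with trypsin and collagenase, and epithelium was collected by repeated low-speed spins, more of them for lung than for mammary gland, with no cell sort named. The other 6 arrays hold reprogrammed lung and reprogrammed mammary epithelial cells, 3 of each, from a study of stroma-dependent lineage reprogramming in vivo. They entered the scaling, the choice of tested probes and the shared estimate of spread, and their values are given beside the adult ones. Nothing states that replicates came from separate animals, so the p-values rest on the spread between these arrays, and that spread may be technical.

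MiRNAs are short RNAs that pair through their seed with sites in messenger RNAs and lower their output. Many belong to families of near-identical sequence or are cut from 1 shared transcript, so that several can move together. Lung epithelium lines the airways and the gas-exchange surface, and mammary epithelium forms the ducts and the milk-producing alveoli. The probes of the array carry serial numbers only. No table used here pairs these with miRNA names or sequences, so the lists of epithelial, endothelial, muscle, blood and immune miRNAs could be matched to 0 probes. The tissue labels were therefore not checked against marker miRNAs, and the results are given by probe. In bulk samples such as these, fewer cells of a type and less RNA per cell cannot be told apart.

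Adult lung arrays were brighter than adult mammary arrays before scaling. Taken as the 75th percentile of signal across the 630 probes that every array detected, brightness was 2295, 2205 and 2980 in adult lung and 1327, 1471 and 1418 in adult mammary cells, and the groups did not overlap. The mammary mean was 0.564 of the lung mean (exact permutation test over arrays, two-sided, p = 0.1, the smallest that 3 against 3 allows). A probe was called detected where most of its spots were well above background, and the arrays detected 879, 851 and 1006 probes in lung and 788, 816 and 830 in mammary cells (exact permutation p = 0.1, two-sided). Across those 630 probes the correlation between arrays was 0.979 to 0.993 within adult lung, 0.968 to 0.982 within adult mammary and 0.913 to 0.936 between the tissues. Probes are not independent, and these values only describe the arrays. The median spread of a tested probe was 0.18 between lung arrays and 0.30 between mammary arrays (SD on the log2 scale, n = 3 each). Between repeat spots of a probe within an adult array it was 0.08. The spread between arrays is that of probe averages over 947 probes, and the spread between spots that of single spots over the 790 with over 1 spot.

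Many probes separated the tissues, in both directions. Of 947 probes detected on at least 3 arrays, 255 differed (26.9%), of which 143 were higher (15.1%) and 112 lower (11.8%) in mammary than in lung cells (limma, Benjamini-Hochberg adjusted p under 0.05). The median difference, mammary minus lung, was 1.36 among the higher probes, -1.05 among the lower ones and 0.00 over all tested, on the log2 scale. Differences over 2-fold were seen in 110 higher and 60 lower probes, and differences over 4-fold in 32 and 10. Over 8-fold there were 10 higher and 6 lower probes, and over 16-fold 4 of each. The mammary and lung arrays did not overlap for 253 of the 255 called probes, beside 45.2% of all probes tested. The count fell to 158 without adult lung replicate 2, 162 without adult lung replicate 3 and 147 without adult mammary replicate 2. The balance of directions also moved with single arrays: 108 were higher and 119 lower without adult mammary replicate 1, and 89 each without adult lung replicate 1. Of the tested probes, 6 were detected on 0 adult arrays.

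**Figure D1:**
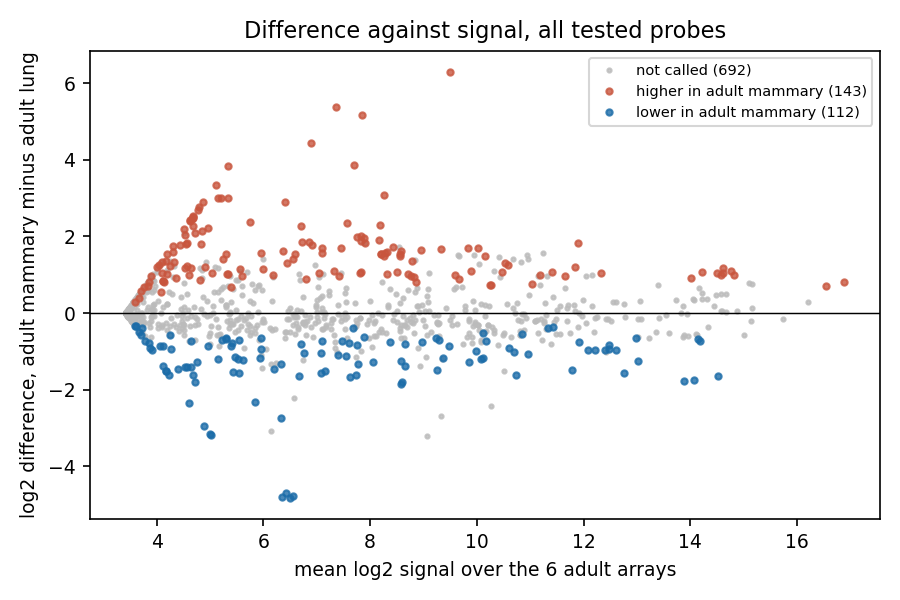
Log2 difference of adult mammary minus adult lung (vertical axis) against the mean log2 signal of the 6 adult arrays (horizontal axis) for the 947 tested probes, with 1 point per probe. Called probes (143 higher, 112 lower, limma) lie on both sides of 0, and the differences over 16-fold lie 4 above and 4 below.

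Among probes well above background on all 6 adult arrays, 218 of 708 (30.8%) differed, beside 37 of the 239 others (15.5%). The share was 27.3% among the 754 probes with 6 or 7 spots per array, with 116 higher and 90 lower. It was 27.4% among the 157 probes with a single spot, with 21 higher and 22 lower, and 16.7% among the 36 with 5 spots, with 6 higher and 0 lower.

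By the difference of mammary minus lung, the 2 highest probes were UCSF034_000901 and UCSF034_000380, and the 2 lowest were UCSF034_000556 and UCSF034_000547. They were ranked among the 217 called probes that were well above background on all 6 adult arrays and whose groups did not overlap. UCSF034_000903, a called probe with a difference of 5.39, was left out by this rule, since it was detected on 1 of 3 lung arrays. Log2 signal of UCSF034_000901 was 4.17, 4.96 and 9.92 on lung replicates 1, 2 and 3 and 12.30, 13.08 and 12.55 on mammary replicates 1, 2 and 4. Lung replicate 3 lay between the other lung arrays and the mammary arrays, and the groups did not overlap. The mammary mean was higher by 6.29 ± 1.30 (SE), or 78.4-fold (limma, adjusted p = 0.00654). The size depended on single lung arrays: the difference was 5.20 without replicate 1, 5.60 without replicate 2 and 8.08 without replicate 3 (limma, adjusted p = 0.0244, 0.0330 and 0.000162). Lung replicate 3 was the brightest of the 12 and the sole adult lung array of its slide, and the part of either in this value was not tested.

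UCSF034_000380 gave 5.04, 5.09 and 5.66 in lung and 11.08, 10.36 and 9.83 in mammary cells. The lung arrays lay close together, and every mammary array was over 4 log2 units above the highest of them. The difference was 5.16 ± 0.41 (SE), or 35.8-fold (limma, adjusted p = 3.2e-05).

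UCSF034_000556 gave 8.63, 9.10 and 8.97 in lung and 3.89, 4.40 and 3.96 in mammary cells, a difference of -4.82 ± 0.47 (SE, limma adjusted p = 0.000108), or 28.2-fold lower. UCSF034_000547 gave 8.48, 8.97 and 8.80 in lung and 3.67, 4.40 and 3.78 in mammary cells, a difference of -4.80 ± 0.44 (SE, limma adjusted p = 8.0e-05), or 27.9-fold lower. For both, all mammary arrays lay near the floor of 3.42 set on log2 signal, while no lung array was under 8.48. Their direction held in every processing tried, but the size did not. After normexp background correction, with an offset of 50 and no floor, the differences were -2.72 and -2.63. By the same rule, the next probes in rank had differences of 4.45 and -4.78, just outside the named ones.

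**Figure D2:**
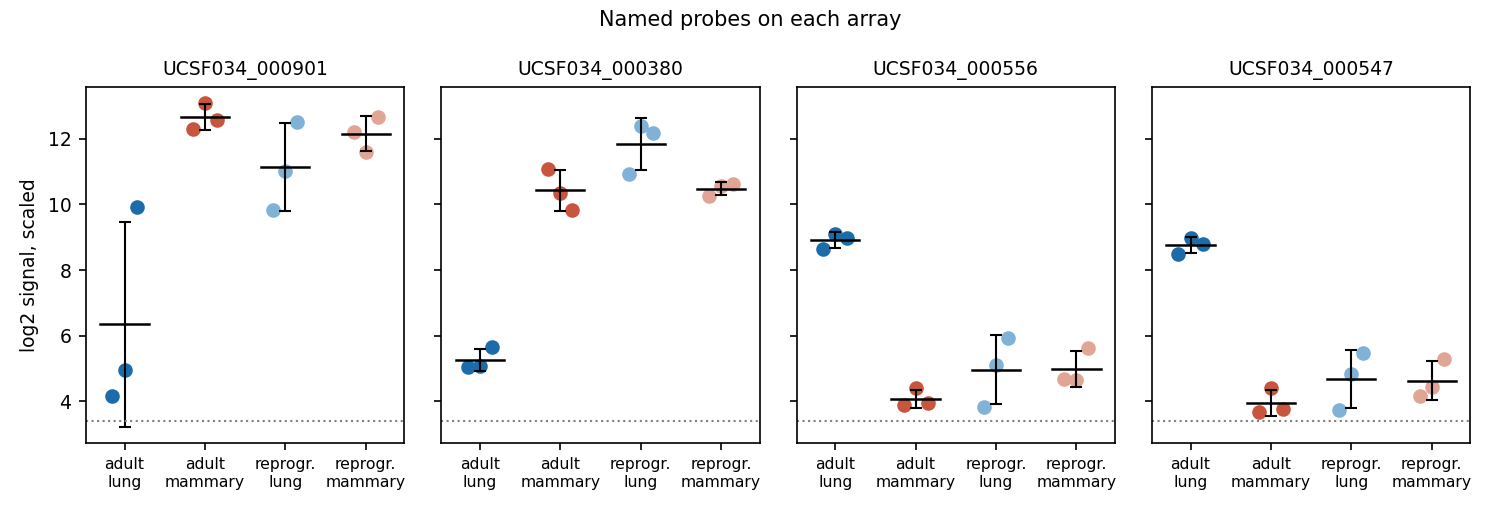
Scaled log2 signal (vertical axis) of the 4 named probes on each array by group, with 3 points per group, the mean as a horizontal line, the SD as an error bar and the floor of 3.42 as a dotted line. Adult lung stands apart from the other 3 groups at each probe, except that lung replicate 3 reached 9.92 at UCSF034_000901.

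Probes with neighbouring serial numbers behaved alike. The correlation of the tissue difference between probes 1 serial number apart was 0.634 over 604 tested pairs, and it was 0.474 at a distance of 2, 0.239 at 5, 0.195 at 10 and 0.040 at 20. These values are across probes and are given as a description. Where the first probe of a consecutive pair was called, the second was called in the same direction in 115 of 180 pairs (63.9%) and in the opposite direction in 5. At a distance of 20 these counts were 13 and 14 of 143. Counted as unbroken runs of serial numbers called in 1 direction, the 255 probes made up 140 runs, 85 higher and 55 lower. Single probes made up 89 of the runs, and the other 51 runs held 166 probes. The sources used here do not say what neighbouring serial numbers share.

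All 4 named probes lay in such neighbourhoods. The 8 probes that differed over 16-fold fell into 3 stretches of serial numbers, and the 16 over 8-fold into 6. Directly before UCSF034_000380, the mean log2 signal was 4.66 in lung and 9.11 in mammary cells, and directly after it these were 5.77 and 9.64. Within 10 serial numbers of UCSF034_000380, 4 probes including itself were called higher, by 3.83 to 5.16 (limma). UCSF034_000547 and UCSF034_000556 are 9 numbers apart, and within 10 numbers of either, 9 probes were called lower, by -4.82 to -0.34. Around UCSF034_000901 the same count was 6 higher, by 1.96 to 6.29. Each count includes the named probes, and over all tested probes 15.1% were called higher and 11.8% lower (limma). Other tested neighbours were not called, and some lay on the other side of 0. Numbers 373 to 375, near UCSF034_000380, differed by -0.63 to -0.61, and numbers 894 and 896, near UCSF034_000901, by -0.64 and -0.57. The probe 2 numbers after UCSF034_000901 was detected on 1 of 3 lung arrays, with means of 4.67 in lung and 10.06 in mammary cells. The directions of the called neighbours held with every scaling between arrays and in the authors' table, but after normexp correction 2 of the 9 lower probes were above 0.

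**Figure D3:**
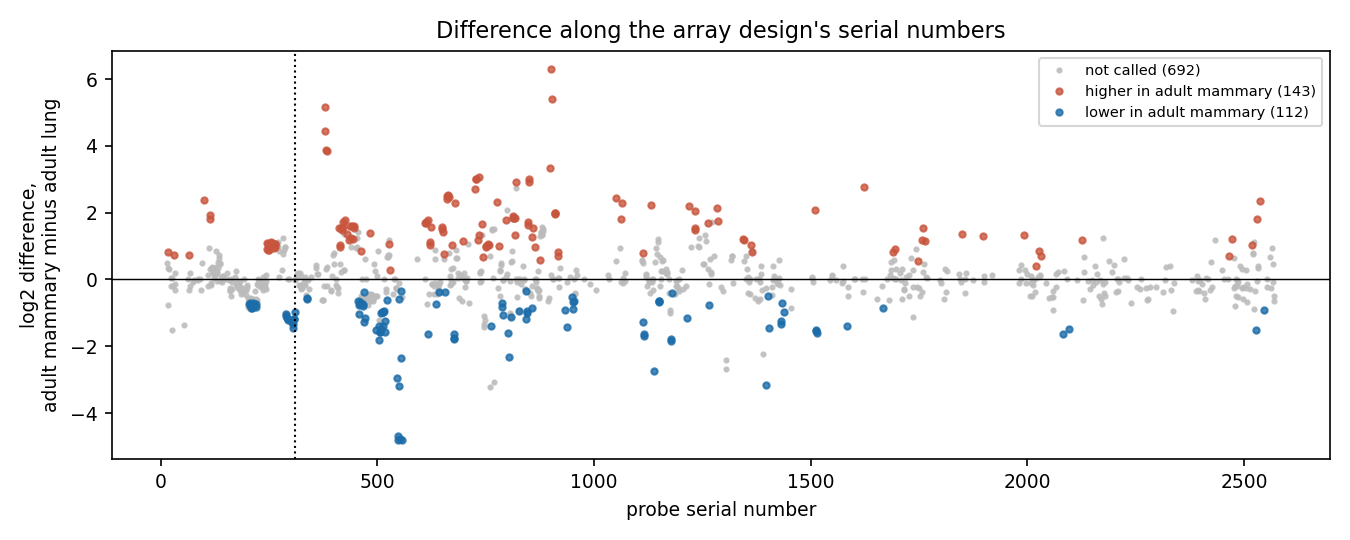
Log2 difference of adult mammary minus adult lung (vertical axis) along the probe serial number (horizontal axis) for the 947 tested probes, with the dotted line after number 309, below which probes have 1 or 5 spots and lie outside the authors' table. Called probes cluster in stretches of 1 direction, among them the 21 consecutive higher probes from 245 to 265.

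The longest run held 21 consecutive probes, numbers 245 to 265, each with 1 spot per array. All 21 were higher in mammary cells, by 0.88 to 1.11 (median 1.01 on the log2 scale), although their mean signal in lung ran from 4.12 to 14.21. The largest adjusted p was 0.0290 (limma). Averaged over the run, log2 signal was 8.94, 9.18 and 9.21 on the lung arrays and 10.44, 10.30 and 9.62 on mammary replicates 1, 2 and 4. Mammary replicate 4 was the lowest mammary array and lay above every lung array after scaling. On slide 1 the 21 differences ran from 1.13 to 1.59, and on slide 2 from 0.02 to 0.64. The probes were not printed side by side: the median distance between spots of consecutive numbers in the run was 67.9 spots on a grid of 192 by 82. The calls in this run depended on the scaling: limma called 10 of the 21 when every probe entered the percentile and 16 after quantile normalization. With no scaling limma called 0 of the 21 and gave 0 of them an unadjusted p under 0.05, at a median difference of 0.19. Unscaled, the average over the run was 9.61, 9.79 and 10.26 on the lung arrays and 10.31, 10.33 and 9.60 on mammary replicates 1, 2 and 4, so that mammary replicate 4 lay below every lung array. The probes directly before and after the run differed by -0.05 and 1.05 (limma, adjusted p = 0.881 and 0.302). Without the single-spot probes 212 of 790 probes differed, 122 higher and 90 lower.

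Some probes were detected in 1 adult tissue only. Detection on all 3 lung arrays but on no mammary array was seen at 46 probes, and the converse at 11. Of these, 14 (30.4%) and 4 (36.4%) were called (limma), beside 26.9% of all tested probes. Lung arrays were also the brighter ones, and the part of brightness in the unequal numbers was not tested. Where a tissue had no detected signal, a lower bound on the fold was taken from the brighter tissue's mean. It was set against the lowest signal well above background on each array of the dim tissue, or the probe's own signal, whichever was higher. Signal had been floored before this step, so that this lowest signal lay at or near 3.42 and the bound depends on that floor. For 11 of the 46 lung probes this bound did not exceed 1. The 14 called lung probes were at least 1.26-fold to at least 9.07-fold brighter, with a median bound of 2.72. The probe with the highest bound had a mean of 6.60 in lung and sat at the floor of 3.42 in mammary cells (limma, adjusted p = 2.4e-06). It lies 5 serial numbers before UCSF034_000556. The 4 called mammary probes were at least 1.95-fold to at least 7.51-fold brighter, and the highest of them had a mean of 6.33 in mammary cells (limma, adjusted p = 0.0486).

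The arrays lie on 3 slides, read from the array identifiers, and 2 slides held both adult tissues. Slide 1 carried lung replicates 1 and 2 with mammary replicate 1, slide 2 carried lung replicate 3 with mammary replicate 4, and slide 3 carried mammary replicate 2 without an adult lung array. The tissue difference can therefore be taken on slides 1 and 2 from arrays that are not shared. Of 160 probes over 2-fold higher in mammary cells on slide 1, 96 (60.0%) were over 2-fold higher on slide 2, where 16.9% of all tested probes were, and 155 had the same direction. Of 86 probes over 2-fold lower on slide 1, 51 (59.3%) were over 2-fold lower on slide 2, against 11.7% of all tested, and 66 had the same direction. Their median difference was 1.51 and 1.14 on slides 1 and 2 for the higher probes and -1.37 and -1.33 for the lower ones. The share of all tested probes in each direction on slide 2 is not given. The counts of 155 and 66 with the same direction are therefore descriptions only. Over all 947 probes the 2 slides' differences correlated at 0.661, as a description across probes. A fit with the slide as a block called 202 probes, 123 higher and 79 lower (limma). UCSF034_000901 differed by 7.73 on slide 1 and 2.64 on slide 2, UCSF034_000380 by 6.02 and 4.17, UCSF034_000556 by -4.98 and -5.01 and UCSF034_000547 by -5.06 and -5.02. The named probes were chosen for groups that do not overlap, which fixes these directions, so that only the sizes can be read.

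**Figure D4:**
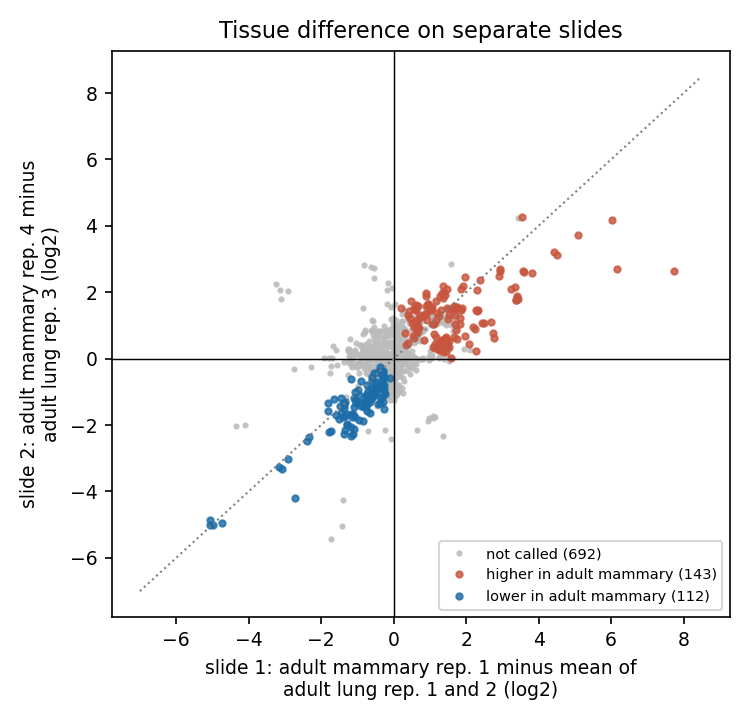
Tissue difference of each tested probe on slide 1 (horizontal axis) and slide 2 (vertical axis), both as log2 of adult mammary minus adult lung, with equality as a dotted line. Of the probes over 2-fold higher on slide 1, 60.0% were over 2-fold higher on slide 2, and 8 probes were over 2-fold in opposite directions.

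The same probes were measured in the reprogrammed cells. Reprogrammed lung arrays read 9.84, 11.03 and 12.51 at UCSF034_000901, while the reprogrammed mammary arrays read 12.20, 11.59 and 12.66. At UCSF034_000380 the readings were 10.92, 12.39 and 12.16 for reprogrammed lung, against 10.24, 10.57 and 10.60 for the reprogrammed mammary arrays. Every reprogrammed array at UCSF034_000380 was thus over 4 log2 units above the adult lung arrays. UCSF034_000556 had means of 4.96 ± 1.05 and 4.99 ± 0.54 in reprogrammed lung and reprogrammed mammary cells, and UCSF034_000547 had 4.69 ± 0.88 and 4.63 ± 0.59 (log2 signal, SD, n = 3). At both of these probes all reprogrammed arrays lay below all adult lung arrays. Reprogrammed mammary minus reprogrammed lung was 1.03 ± 1.30, -1.35 ± 0.41, 0.03 ± 0.47 and -0.06 ± 0.44 for the 4 probes in the order above (SE, limma adjusted p = 0.747, 0.126, 1.00 and 0.985). The difference at UCSF034_000380 passed the threshold with no scaling (-2.20), after normexp correction (-1.31) and with array weights (-1.82). After normexp correction the differences at UCSF034_000556 and UCSF034_000547 were 0.53 and 0.58 and passed it too (limma, adjusted p = 0.0450 and 0.0169). Between the reprogrammed groups 0.211% of all tested probes were called. In the run of 21 single-spot probes the same difference ran from -0.53 to 0.17, and limma called 0 of them, with 3 at an unadjusted p under 0.05.

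The split of calls by direction differed between processings. It was 143 higher and 112 lower in the main processing, 110 and 155 when every probe entered the percentile, and 51 and 386 with no scaling. Normexp correction gave 472 and 88. Besides the background step and the signal column, that processing differed by an added offset of 50 and by having no floor. The authors' values gave 104 and 123 over the 754 tested probes that they cover, where the main processing gave 116 and 90. The median difference over all tested probes moved with it, from 0.00 to -0.16 when every probe entered the percentile, -0.68 with no scaling, 0.44 after normexp correction and -0.086 in the authors' values. Of the 255 probes, limma still called 220 when every probe entered the percentile, 215 after quantile normalization, 160 with no scaling and 219 after normexp correction.

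**Figure D5:**
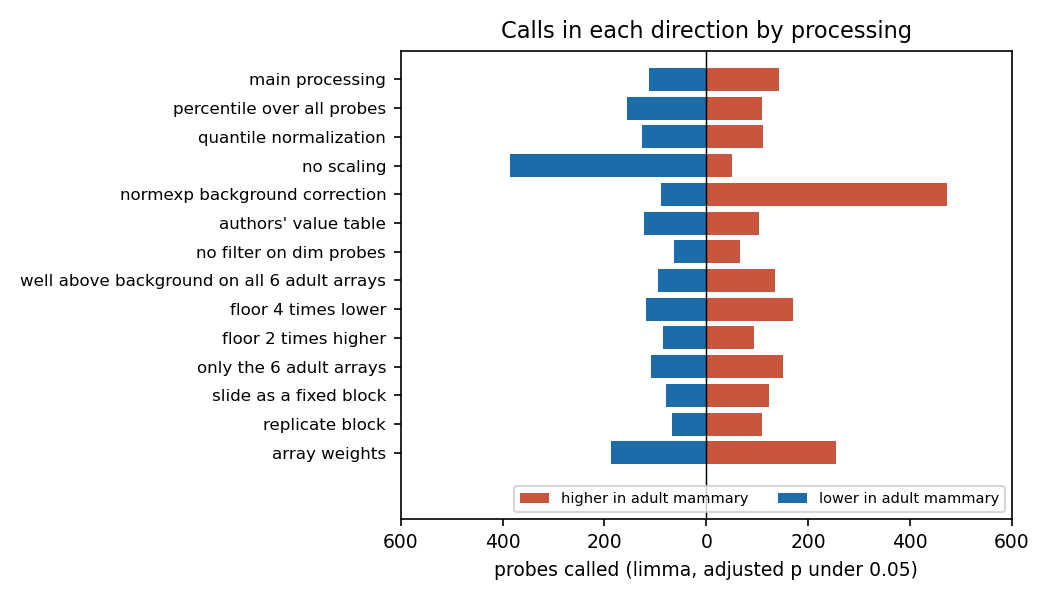
Number of probes called between adult mammary and adult lung (limma, adjusted p under 0.05) under each processing, with probes higher in mammary cells to the right of 0 and lower ones to the left. The main processing gave 143 and 112, no scaling 51 and 386, and normexp correction 472 and 88.

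The authors' deposited log2 values gave a second reading of the same 6 arrays. Of the 754 tested probes that they cover, 206 were called from scanner signal and 227 from the authors' values, and 171 by both (limma), which is 83.0% of the first and 75.3% of the second. None of the 171 differed in direction. The differences correlated at 0.963 over the 754 probes, and 205 of the 206 had the same sign. Sizes were smaller in the authors' values, with a median of 0.97 against 1.39 on the log2 scale over the 206 probes. These probes were chosen by their calls from scanner signal, and the part of that choice in the unequal sizes was not tested. At UCSF034_000380 the authors' means were 6.24 in lung and 10.56 in mammary cells, beside 5.26 and 10.42 from scanner signal. UCSF034_000901 and UCSF034_000380 were higher by 5.64 and 4.32 in the authors' values, and UCSF034_000556 and UCSF034_000547 differed by -3.43 and -3.32.

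The choice of arrays in the fit changed which probes were called. Fitted on the 6 adult arrays alone, limma called 259 probes, of which 200 were shared with the 255 (78.4% of the 255 and 77.2% of the 259). The 12-array fit called 55 probes that the 6-array fit did not, and the 6-array fit 59 that the 12-array fit did not. Of these 59, 29 differed over 2-fold, 24 higher and 5 lower in mammary cells. At these 29 the median SD was 1.15 between reprogrammed lung arrays, beside 0.34 over all tested probes. It was 0.26 between adult lung and 0.21 between adult mammary arrays. The 2 fits chose these probes partly by their spread, so the values are a description.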

How the data were processed

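Spot intensity came from single-colour Agilent scanner files, with a linear processed signal from which Agilent Feature Extraction had taken the background, per the file headers. Its version is 10.5.1.1 in the headers and 10.1 in the submitters' processing notes. The file of reprogrammed lung replicate 3 has no header and is rounded. The deposited table of log2 values was made by the authors in a way not given in the sources used here. Each of its columns correlated with its own array's log2 median signal (0.996 to 1.000), and column medians were 4.97 to 5.00, while scale and centring stay unknown. It holds 0 columns of other samples.

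Each array held 15075 spots of 2579 probes besides controls. Spots marked as outliers, 164 to 345 on an array, were dropped, 1 probe value was missing for want of a usable spot, and saturation marked 0 spots. To scale an array, signal was divided by its 75th percentile across the 630 probes that all arrays detected, relative to the geometric mean of these percentiles, since 1479 probes were detected on no array. It was then floored at 10.7, or 3.42 in log2 units, which is the 5th percentile of an array's spots well above background, as a median of the arrays, and log2 values were averaged per probe. A probe counted as detected where the share of spots well above background exceeded 0.5. The 947 probes detected on at least 3 arrays were fitted with limma 3.58.1 in R 4.3.3, with 4 group means over 12 arrays, 8 residual and 1.47 prior degrees of freedom, and Benjamini-Hochberg adjustment over all 947. The fit was tested on simulated data with independent normal noise at each probe and no floor. The measured probes are floored and not independent, so the simulation does not give the error rate here. Plots used matplotlib 3.10.9, in Python 3.11.15. The named probes are the 2 highest and 2 lowest differences among called probes detected on all 6 adult arrays with groups that do not overlap, since no names were paired. Groups, lists and tests were chosen with earlier results of these data known. The number of arrays limits the precision.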

Additional observations from a re-analysis of the deposited data

Results flagged for a closer look

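The tissue difference was tested for a change between adult and reprogrammed cells at the 4 named probes, as the adult difference minus the reprogrammed difference. It passed the threshold at 3 of them (limma, adjusted over 947 probes). At UCSF034_000380 it was 6.52 ± 0.58 (SE, adjusted p = 8.8e-05, limma), at UCSF034_000556 -4.85 ± 0.67 (SE, adjusted p = 0.00200, limma) and at UCSF034_000547 -4.75 ± 0.62 (SE, adjusted p = 0.00161, limma). At UCSF034_000901 it was 5.27 ± 1.84 (SE, adjusted p = 0.0975, limma), and it was 7.05 without adult lung replicate 3 and 4.18 without adult lung replicate 1 (limma, adjusted p = 0.00316 and 0.192). The probes were chosen for a large adult difference, which enlarges these values, and 11.7% of all tested probes passed the same test.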

How the results depend on the processing

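The 4 named probes kept their direction and stayed past the threshold in all 20 other settings (limma). Differences ran from 5.20 to 8.08 for UCSF034_000901, 4.21 to 5.46 for UCSF034_000380, -5.63 to -2.72 for UCSF034_000556 and -5.61 to -2.63 for UCSF034_000547. Because these probes were chosen for groups that do not overlap, leaving out 1 adult array could not change their direction. Settings that changed only the tested probes, and the fit on the 6 adult arrays alone, could not change the difference itself. The largest adjusted p of a named probe in these settings was 0.0490, at UCSF034_000901 in the fit on the 6 adult arrays alone (limma). The 255 calls became 437 with no scaling, 560 after normexp correction (run on median signal and chosen after seeing the data), 130 with no filter on dim probes and 442 with array weights. The median difference of all tested probes was -0.16 when every probe entered the percentile, -0.11 after quantile normalization, -0.68 with no scaling, 0.44 after normexp, -0.086 in the authors' values, -0.071 over probes detected on all 6 adult arrays, -0.053 with a floor 4 times lower and -0.037 with the replicate block. Leaving out 1 adult array gave 147 to 227 calls, a median difference of -0.01 to 0.00, a mammary minus lung brightness of -1232 to -845, a difference in detected probes of -131 to -53.7, and 61 to 79 probes detected in 1 tissue only. Reprogrammed mammary minus reprogrammed lung at UCSF034_000547 turned to 0.58 after normexp (limma, adjusted p = 0.0169), and at UCSF034_000556 it rose to 0.53 there (limma, adjusted p = 0.0450). The cause of these changes was not tested. The replicate block gave 177 calls, 110 higher and 67 lower, against 255 without it, and the adult minus reprogrammed difference at UCSF034_000901 then passed the threshold (limma, adjusted p = 0.0265). Adult lung and mammary share numbers 1 and 2, whose deviations correlated at -0.20 and -0.05. Between adult and reprogrammed arrays of 1 tissue, same-number deviations correlated at -0.05, 0.25 and -0.04 in lung (replicates 1, 2 and 3) and 0.18, -0.29 and -0.23 in mammary cells (replicates 1, 2 and 4). The numbers were not taken to pair the samples. Signal near background limits sizes at the floor.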

Other observations

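Of the 947 tested probes, 8 were over 2-fold in opposite directions on slides 1 and 2, 4 each way. Of these, 4 have consecutive serial numbers, 745 to 748, and were singled out after their values were seen. Their median log2 signal was 6.15, 7.04 and 7.05 on the adult lung arrays and 3.42, 3.78 and 9.11 on adult mammary replicates 1, 2 and 4. Mammary replicate 4 was thus above every lung array and the other 2 mammary arrays below them. In reprogrammed lung the medians were 10.03, 7.36 and 3.42 for replicates 1, 2 and 3, and in reprogrammed mammary cells 5.17, 7.54 and 3.51 for replicates 1, 2 and 4. None of the 4 probes was called between the adult tissues (limma, adjusted p from 0.678 to 0.766).

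Over all 947 tested probes, an array lay over 1 log2 unit beyond both others of its group at 14, 1 and 11 probes for adult lung replicates 1, 2 and 3, and at 28, 11 and 38 for adult mammary replicates 1, 2 and 4. Among the 255 called probes these counts were 0, 0 and 2 for lung and 10, 5 and 12 for mammary cells. For mammary replicate 4 the shares were 4.01% of the tested and 4.71% of the called probes, and at 11 of its 12 called probes it lay on the lung side. Mammary replicates 1 and 2 lay on the lung side at 5 of 10 and 2 of 5 called probes. Lung replicate 3 lay on the mammary side at 2 of 2. The side is not given for all tested probes, so these counts only describe the arrays.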
